A study of Mus musculus with 18 samples.

Results

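Gene expression was compared between DMM-operated and contralateral cartilage of the medial tibial plateau 4 weeks after surgery, the middle of the time points studied. In destabilisation of the medial meniscus (DMM) the ligament that anchors the meniscus is cut, and the joint then develops osteoarthritis. The comparison was defined by time point and treatment alone, and it takes 6 of the 18 arrays of the study. These are 3 of DMM cartilage and 3 of contralateral cartilage, with every probe in the deposited values. The animals were male C57Bl6/J mice aged 14 weeks, with no transgene or drug named in the labels. DMM was done in the right knee, and the left knee of the same mice was not operated, so the contralateral cartilage is not a sham control and comes from animals that carry an operated joint. Each array held RNA pooled from the cartilage of 8 knees. The study's methods describe 3 groups of 8 mice for each time point, but neither they nor the labels say which DMM and contralateral pool share a group of mice, so the pools were treated as unpaired. Per the study's methods, muscle and menisci were taken off the joint, whose ligaments were cut through, before cartilage was dissected under a microscope. The RNA went through an amplification of 2 rounds before it was labelled and read on Illumina bead arrays.

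Articular cartilage holds one resident cell type, the chondrocyte, in a matrix of type II collagen and aggrecan, and it has no vessels, nerves or muscle. Chondrocytes build this matrix and also secrete the proteinases that degrade it, chiefly metalloproteinases of the MMP and ADAMTS families. Fibrous connective tissues around the joint are instead built by fibroblasts from type I, III, V and VI collagens, small leucine-rich proteoglycans, periostin and tenascins. Skeletal muscle fibres contract through actin and myosin filaments, ordered by titin and nebulin and switched on by calcium through troponin, and fast and slow fibres use different isoforms of most of these proteins.

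The values are log2 intensities of 22999 probes, which ran from 4.62 to 14.67 on every array, with an array median of 6.55 to 6.56 and a 75th percentile of 7.52. The 5th percentile was 5.65 and the 25th was 6.06. Of these probes 18998 were assigned to 1 gene, and they represent 11499 genes. A gene is given by its probe with the highest mean unless another probe is named, and it was called when any of its probes had an adjusted p below 0.05 (limma, Benjamini-Hochberg over all probes). The defining chondrocyte markers were far above the 75th percentile in both groups. Aggrecan (Acan) read 11.33, 11.15 and 11.01 in the DMM pools and 11.73, 11.32 and 11.43 in the contralateral pools. Type II collagen (Col2a1) read 12.56, 12.45 and 12.56 in DMM and 11.95, 12.04 and 11.92 in contralateral cartilage, a difference of 0.55 ± 0.13 (SE) whose adjusted p of 0.0807 missed the threshold.

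At 4 weeks 58 genes were up-regulated and 50 were down-regulated in DMM cartilage, that is 0.504% and 0.435% of the genes measured. They come from 147 probes, 0.639% of all probes, of which 79 were higher (0.343%) and 68 lower (0.296%) in DMM cartilage. On each of these 147 probes all 3 DMM pools lay on one side of all 3 contralateral pools, which was so for 18.3% of all probes. Members of 2 lists of skeletal muscle genes made up 31 of the 50 down-regulated genes (62.0%) and none of the 58 up-regulated ones, although these lists hold 86 (0.75%) of the genes measured. Members of lists of matrix proteins and proteinases made up 19 of the 58 up-regulated genes (32.8%) and 2 of the 50 down-regulated genes (4.0%). These lists hold 178 (1.55%) of the genes measured. The median difference over all genes was 0.00, with 5861 genes positive and 5638 negative. With 3 pools a side no exact permutation test of a single gene can give a two-sided p below 0.1, so each call rests on the spread that limma borrows across probes.

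**Figure D1:**
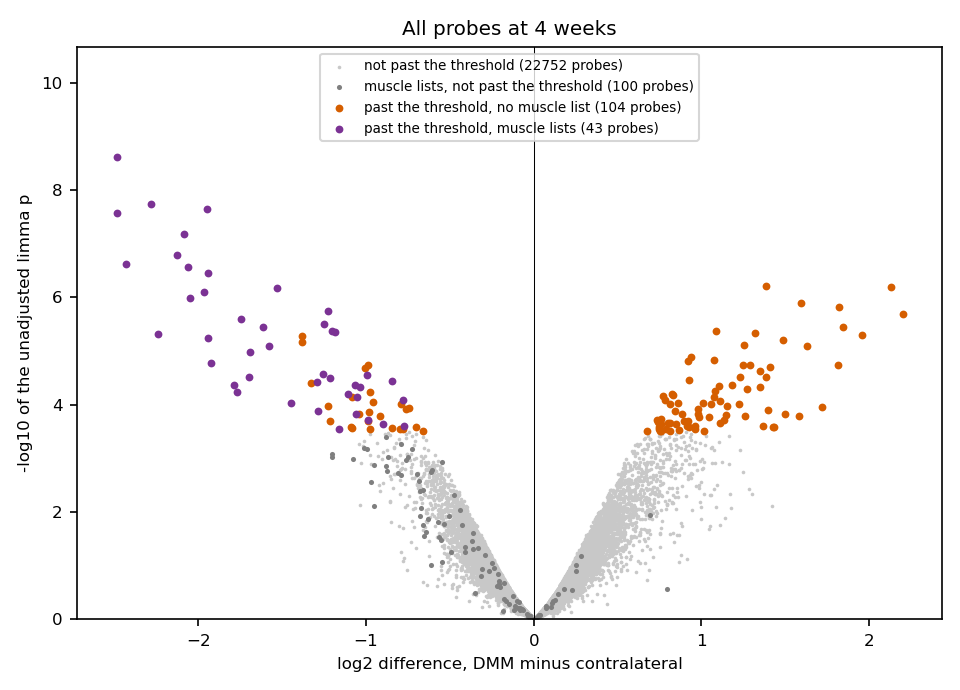
Each point is a probe, with the log2 difference (DMM minus contralateral) on the x axis and the −log10 of its unadjusted limma p on the y axis; purple and orange points passed the threshold. The 43 called probes of muscle-list genes all lie on the left, and the strongest differences on the right stay smaller than the strongest on the left.

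How firmly single genes were called differed widely. When each of the 6 pools was left out in turn, 29 of the 108 genes were called every time, 10 of them up-regulated and 19 down-regulated, and 8 were called in none of these smaller fits. Leaving out DMM pool 2 or DMM pool 3 ended 72 calls each, contralateral pools 1, 2 and 3 ended 64, 47 and 35, and DMM pool 1 ended 23. The 10 were Sfrp2, Mmp3, Bpifb1, Tnn, Ccn5, Mmp2, Cthrc1, Nt5dc2, Fmod and Mpo. The 19 were muscle-list genes with the exception of Map4. Each smaller fit has fewer arrays and its own adjustment over all probes, so a call near the threshold can end while the difference stays. Called in 2 of the 6 fits each, Crispld2 ranged from 0.72 to 0.80, Bmpr1b from -0.80 to -0.70 and Postn more widely, from 1.43 to 2.11. An ended call therefore does not by itself show that a gene depends on a single pool. In a fit of all 18 arrays, in which the weeks share one estimate of the spread, the called probe of 23 of the 108 genes still passed, 15 up-regulated and 8 down-regulated. The probe taken was the brightest where that was called, and otherwise the one with the lowest p. Of the muscle-list genes only Actc1 was among the 23, and 1 other probe of Actn3 passed.

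The genes of the muscle fibre showed the largest differences of the comparison. Of 40 measured genes of the contractile apparatus 19 fell in DMM cartilage and 0 rose, and the median difference was -0.51. Pvalb, the calcium buffer of fast fibres, read 7.86, 7.58 and 7.84 in the DMM pools and 10.27, 10.02 and 10.44 in the contralateral pools. The nearest pools of the groups were 2.16 log2 units apart, and the difference of -2.49 ± 0.15 (SE) corresponds to 5.6-fold less signal (limma adjusted p = 5.62e-05, 0.0810 in the fit of all 18 arrays). In a bulk sample fewer cells of a type and less RNA per cell cannot be told apart.

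The actins of the thin filament fell as well. Actc1, the actin of cardiac and developing muscle, read 5.46, 6.06 and 5.80 in DMM and 8.53, 7.94 and 8.31 in contralateral cartilage, a difference of -2.48 ± 0.19 (adjusted p = 0.000155). Its value in DMM pool 1 lay below the 5th percentile of 5.65. Acta1, the actin of adult skeletal muscle, differed by -1.97 ± 0.21 (adjusted p = 0.00138). Troponin, which switches the filament on, fell in its fast forms. Tnnc2, its calcium-binding subunit, read 7.90, 7.86 and 8.40 in DMM and 10.48, 9.87 and 10.18 in contralateral pools (-2.12 ± 0.19, adjusted p = 0.000626). Tnnt3, the subunit that binds tropomyosin, differed by -2.06, and Tnni2, the inhibitory subunit, by -1.29. The call of Tnni2 ended without DMM pool 2 or DMM pool 3 (adjusted p up to 0.0680).

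Of the myosin genes and their partners several fell. Myh4, the heavy chain of the fastest fibres, read 8.68, 9.35 and 9.62 in DMM and 11.45, 11.01 and 11.34 in contralateral pools (-2.05 ± 0.22, adjusted p = 0.00166). The light chains Myl1 and Mylpf differed by -2.28 and -1.94, and Mybpc2, the myosin-binding protein of fast fibres, by -1.94. The giant scaffold proteins were also lower: nebulin (Neb) read 7.49, 6.21 and 7.17 in DMM and 9.54, 8.92 and 9.13 in contralateral pools. Titin (Ttn), which spans the sarcomere from its end to its middle, had 6 of its 9 probes called and the other 3 in the same direction. The call of its brightest probe (-1.79 ± 0.28, adjusted p = 0.0167) ended without contralateral pool 1 or contralateral pool 3, with an adjusted p of up to 0.0744. Actn3, which anchors thin filaments in fast fibres, had 3 of 3 probes called (-2.08 ± 0.17, adjusted p = 0.000296).

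**Figure D2:**
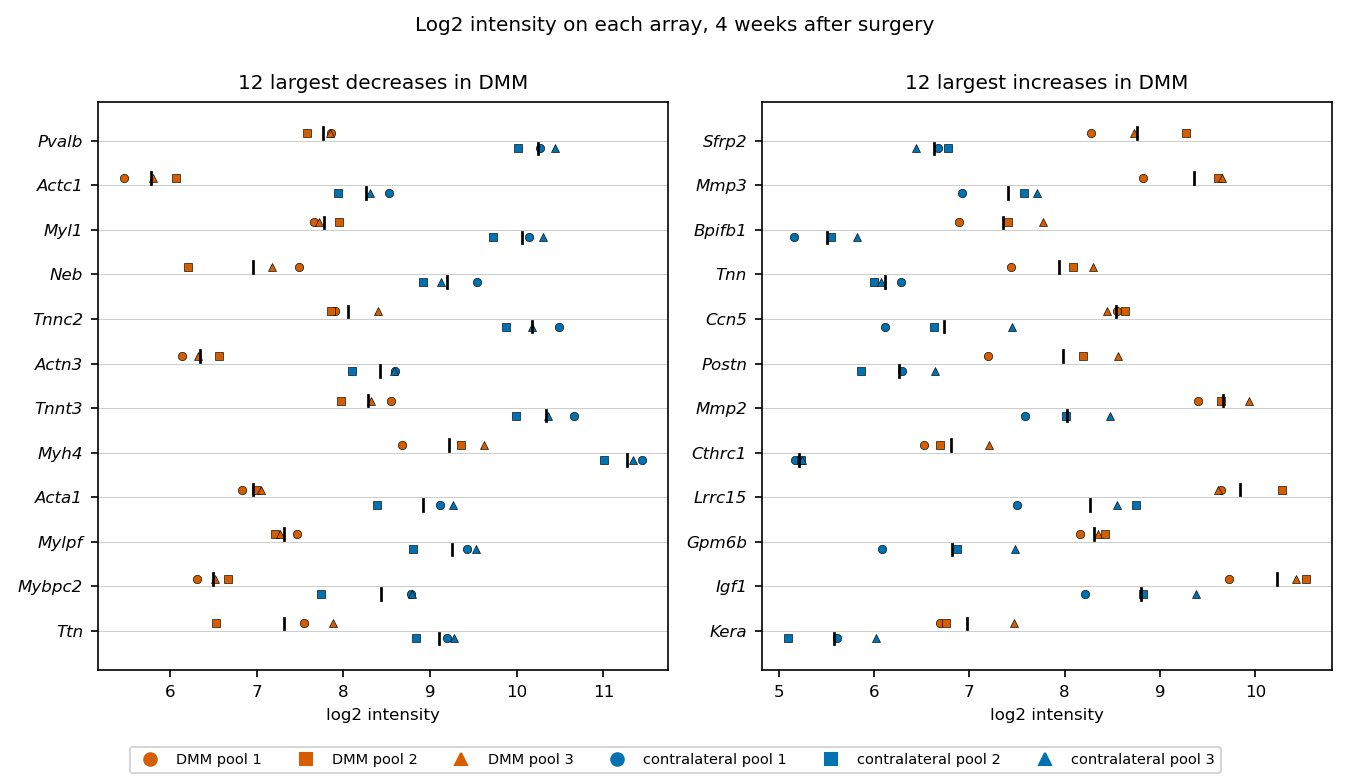
Log2 intensity (x axis) of the 12 genes with the largest decreases and the 12 with the largest increases, with DMM pools in orange above contralateral pools in blue; symbols mark pools 1 to 3 and black bars the group means. In each of the 24 genes the groups do not overlap, and contralateral pool 2 (blue square) is the lowest contralateral pool in each of the 12 decreased genes.

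Other structural members of the fibre were Myom2, Myom1, Xirp2 and Myoz1, which hold the filaments in register, at -1.74, -1.07, -1.53 and -1.20. Of these Myom1 lost its call without DMM pool 2, DMM pool 3 or contralateral pool 1 (adjusted p up to 0.0987). Myoz1 read 4.93, 5.04 and 4.93 in the DMM pools, all below the 5th percentile of 5.65. Not all muscle genes moved. The slow-fibre or embryonic members Tnnt1, Myl3, Myh8 and Mybpc1 had differences of 0.69, 0.23, -0.02 and -0.21, with adjusted p-values of 0.213 to 0.960. Myh1, another fast heavy chain, read 9.60, 7.63 and 8.69 in DMM and 9.85, 6.53 and 7.17 in contralateral pools, with overlapping groups and a spread larger than the difference of 0.79 (adjusted p = 0.689).

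Genes of muscle energy supply and calcium handling had a median difference of -0.59. Of 46 measured genes 12 fell, 0 rose and 43 had a negative difference. Beside Pvalb these were led by Atp2a1, the calcium pump of fast fibres (-1.70), Eno3 and Pgam2, the muscle forms of 2 glycolytic enzymes (-1.69 and -1.58), Casq1, which stores calcium in the sarcoplasmic reticulum (-1.25), and Ckm, the muscle creatine kinase (-1.18). Eno3 read 6.49, 5.89 and 6.21 in DMM and 8.20, 7.33 and 8.12 in contralateral pools. Its groups were 0.84 log2 units apart, and its call held whichever pool was left out (highest adjusted p 0.0404). The call of Atp2a1 ended without DMM pool 2 or contralateral pool 1 (up to 0.0649). Some DMM values lay below the 5th percentile of 5.65: Casq1 in pools 1 and 3 (5.57 and 5.62), Ckm in pool 1 (5.62) and Ryr1 in pool 2 (5.51). Prkaa2, the catalytic subunit of AMP kinase, differed by -1.04 ± 0.16, and it lost its call without DMM pool 2, DMM pool 3 or contralateral pool 1 (up to 0.0987). Ampd1, Ryr1, Mlf1 and Trdn passed in the full comparison but in at most 1 of the 6 smaller fits (adjusted p up to 0.142).

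The 2 muscle lists depended on the pools and on the estimate of the spread more than their medians show. Of contractile genes 14 to 20 fell when a pool was left out, fewest without DMM pool 3, and the fit of all 18 arrays left 2. Of metabolic and calcium-handling genes 5 fell without DMM pool 2, up to 14 fell without another pool, and the fit of all 18 arrays left 0. The mean level of the 40 contractile genes was 7.15, 7.03 and 7.22 on the DMM arrays and 8.14, 7.70 and 8.01 on the contralateral arrays. All 3 DMM arrays thus lay below all 3 contralateral arrays. Whether the pools differed in the amount of muscle carried along in the dissection was not tested.

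Map4 and 4 members of the muscle lists were called through a dim probe while their brightest probe did not follow. For Tpm3, Map4, Mef2c, Mylk2 and Pdlim3 the called probe differed by -0.99, -1.38, -0.90, -0.85 and -1.26, and the brightest probe by 0.28, 0.06, 0.00, -0.31 and -0.36. Tpm3 and Map4 encode a tropomyosin and a microtubule-associated protein found in many cell types, and Mef2c is a transcription factor of muscle, heart and hypertrophic cartilage. Averaged over all probes of a gene, 43 genes were called in place of 108.

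The promoters of the decreased muscle genes are shown because these genes all fell. Start-site windows of 300 bases (250 before and 50 after the start, RefSeq, GRCm38.p6) were found for 22 of the 31 decreased muscle-list genes, 17 of the other 19 decreased genes, 42 of the 58 up-regulated genes and 9261 of the 11499 genes measured. Some genes have more than 1 annotated start and so more than 1 window. Both strands were searched for the CArG box, the site of serum response factor, for the MEF2 site, for the TATA box (TATAAA), the E-box (CANNTG) and the AP-1 site (TGANTCA). The CArG box was in 4 of the 26 windows of decreased muscle genes (15.4%), in 0 of 52 windows of up-regulated genes and in 1.4% of the windows of all measured genes. A MEF2 match was in 2 of the 26 (7.7%), in 0 of the 52 and in 0.4% of all measured genes. An E-box was in 80.8% of the windows of decreased muscle genes, 65.4% of those of up-regulated genes and 64.8% of all. The TATA box was in 23.1%, 15.4% and 8.3%, and the AP-1 site in 11.5%, 9.6% and 5.7%. Muscle-list genes that did not pass the threshold held a CArG box in 6.9% and a MEF2 match in 3.4% of 58 windows. These matches describe the sequence only. The 6 windows with a CArG or MEF2 match follow with that of Mmp3, the most increased proteinase, with matches of all motifs but the E-box in capitals. None of the capitalised matches overlapped another. They are Actc1 at chr2:114052826-114053125 on the minus strand, Acta1 at chr8:123894726-123895025 on the minus strand, Myh4 at chr11:67237562-67237861 on the plus strand, Myom1 at chr17:71019307-71019606 on the plus strand, Ttn at chr2:76982498-76982797 on the minus strand, Xirp2 at chr2:67445752-67446051 on the plus strand and Mmp3 at chr9:7445572-7445871 on the plus strand.
Actc1: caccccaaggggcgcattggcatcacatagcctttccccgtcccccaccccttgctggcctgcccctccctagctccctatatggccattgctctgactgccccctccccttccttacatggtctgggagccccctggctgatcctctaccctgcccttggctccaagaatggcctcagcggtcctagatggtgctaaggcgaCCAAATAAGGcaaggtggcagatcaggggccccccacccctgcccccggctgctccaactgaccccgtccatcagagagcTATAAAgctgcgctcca
Acta1: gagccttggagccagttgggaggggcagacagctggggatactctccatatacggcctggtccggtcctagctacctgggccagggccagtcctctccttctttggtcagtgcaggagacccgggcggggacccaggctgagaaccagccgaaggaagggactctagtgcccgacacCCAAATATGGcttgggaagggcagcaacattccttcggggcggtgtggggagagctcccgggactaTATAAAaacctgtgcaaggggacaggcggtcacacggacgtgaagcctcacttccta
Myh4: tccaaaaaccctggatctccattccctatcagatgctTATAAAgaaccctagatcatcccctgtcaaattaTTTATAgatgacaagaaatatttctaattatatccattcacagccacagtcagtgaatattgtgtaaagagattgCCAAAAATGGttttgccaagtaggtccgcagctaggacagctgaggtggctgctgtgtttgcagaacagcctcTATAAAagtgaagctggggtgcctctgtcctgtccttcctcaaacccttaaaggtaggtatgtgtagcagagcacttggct
Myom1: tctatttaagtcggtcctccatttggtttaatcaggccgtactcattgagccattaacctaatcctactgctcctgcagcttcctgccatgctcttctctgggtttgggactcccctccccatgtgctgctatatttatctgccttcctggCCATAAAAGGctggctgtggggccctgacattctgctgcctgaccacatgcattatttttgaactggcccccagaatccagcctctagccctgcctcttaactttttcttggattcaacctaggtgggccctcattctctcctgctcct
Ttn: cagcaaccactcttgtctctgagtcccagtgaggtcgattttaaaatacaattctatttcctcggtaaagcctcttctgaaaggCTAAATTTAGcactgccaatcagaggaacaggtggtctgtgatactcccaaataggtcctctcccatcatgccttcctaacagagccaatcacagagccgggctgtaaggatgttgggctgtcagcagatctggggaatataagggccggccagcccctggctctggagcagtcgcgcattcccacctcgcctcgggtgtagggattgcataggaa
Xirp2: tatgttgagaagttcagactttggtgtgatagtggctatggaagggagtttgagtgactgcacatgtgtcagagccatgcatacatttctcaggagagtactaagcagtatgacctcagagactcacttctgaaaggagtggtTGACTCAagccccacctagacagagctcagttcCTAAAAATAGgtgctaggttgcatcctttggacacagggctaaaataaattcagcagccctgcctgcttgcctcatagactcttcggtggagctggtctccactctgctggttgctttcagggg
Mmp3: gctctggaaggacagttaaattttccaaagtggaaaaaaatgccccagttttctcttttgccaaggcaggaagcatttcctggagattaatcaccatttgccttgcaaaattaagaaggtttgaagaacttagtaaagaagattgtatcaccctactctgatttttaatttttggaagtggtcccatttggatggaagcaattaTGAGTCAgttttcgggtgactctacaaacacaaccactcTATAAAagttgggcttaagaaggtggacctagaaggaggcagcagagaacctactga
Actc1 and Acta1 held 1 CArG box and 1 TATA match each, and Myh4 held 3 TATA matches, 1 of them on the opposite strand. The TATA match began 33 bases after the annotated start in Actc1 and 7 bases before it in Acta1. The Ttn and Xirp2 windows held MEF2 matches, and Mmp3 an AP-1 site 46 bases before the start.

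Beyond muscle, 19 genes fell that are in neither muscle list. Klhl31 and Nrap, both known from muscle, differed by -1.32 and -1.21. Slc1a1, a glutamate transporter, differed by -1.08, Cdo1, which degrades cysteine, by -0.96, and Ntn4, a secreted netrin, by -0.76. The heparan sulphate 3-O-sulphotransferases Hs3st3a1 and Hs3st3b1 differed by -1.08 and -1.01, the second called through another of its 4 probes (-1.22). Bcl2, the inhibitor of apoptosis, was called through 1 of 8 probes (-0.98, adjusted p = 0.0335). Each of these calls ended when single pools were left out: that of Klhl31 without DMM pool 2 (adjusted p = 0.0734), and the others without DMM pool 2 and 1 or more other pools (up to 0.155 for Bcl2). Myocd, a cofactor of serum response factor in smooth and cardiac muscle, was called through its second probe, which read 6.72, 6.35 and 6.63 in DMM and 7.79, 7.37 and 7.46 in contralateral pools. This difference of -0.97 ± 0.16 (adjusted p = 0.0199) also passed in the fit of all 18 arrays (0.00931), but not without DMM pool 2, DMM pool 3 or contralateral pool 1 (up to 0.0910).

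Of BMP signalling, which governs cartilage growth and repair, 3 members fell and 0 rose of 37 measured genes of the TGF-beta and BMP pathways. These were the ligand Bmp5 (-0.97 ± 0.19), the receptor Bmpr1b (-0.74 ± 0.13) and Id4, an inhibitor of transcription factors that BMPs induce (-0.92 ± 0.17). The other probe of Id4 differed by -0.45 and was not called (adjusted p = 0.240). Bmpr1b read 6.17, 5.99 and 6.09 in DMM and 6.90, 6.73 and 6.87 in contralateral pools, tight within each group, though its other 3 probes differed by only -0.18 to -0.27. Grem1, a BMP antagonist, had a difference of -0.90 that missed the threshold (adjusted p = 0.117). The list's median was -0.07. All 3 calls held with the 18 arrays fitted together (0.0485, 0.0413 and 0.0269), and all 3 ended without DMM pool 2, DMM pool 3 or contralateral pool 1 (adjusted p of up to 0.197).

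Of the alpha-1-antitrypsins, inhibitors of serine proteinases, 2 of the 5 measured copies fell in DMM cartilage. Serpina1e read 9.05, 8.09 and 8.31 in DMM and 9.63, 9.52 and 9.57 in contralateral pools (-1.09 ± 0.21, adjusted p = 0.0466). Serpina1b read 10.86, 10.49 and 10.27 against 11.48, 11.40 and 11.26 in contralateral pools (-0.84 ± 0.16, adjusted p = 0.0474). DMM pool 1 was the nearest to the contralateral pools in both. The other copies Serpina1d, Serpina1c and Serpina1a had differences of -0.90, -0.63 and -0.53 that missed the threshold, and probes of such similar copies may bind each other's RNA. Both calls ended without any one of 5 of the 6 pools, DMM pool 1 being the exception (adjusted p up to 0.208). Of the 18 proteinase inhibitors measured only 1 rose: Timp1, the secreted inhibitor of MMPs, through its second probe at 8.39, 8.60 and 8.69 in DMM and 7.64, 7.97 and 7.83 in contralateral pools (0.75 ± 0.15, adjusted p = 0.0474). Its call ended without any one of 5 pools as well (adjusted p up to 0.216).

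Among chondrocyte markers 1 of 25 fell, 0 rose and 19 had a negative difference, with a median of -0.23. The one that fell was Ucma, a secreted protein of the upper growth plate cartilage, at 9.94, 9.50 and 9.60 in DMM and 10.60, 10.36 and 10.42 in contralateral pools (-0.78 ± 0.15, adjusted p = 0.0474). Its call ended without any one of 5 pools (up to 0.208). Cytl1 differed by -0.80 with an adjusted p of 0.0753, while Col9a1 and Matn4, a chain of type IX collagen and a matrilin, differed by 0.80 and 0.93 (0.0546 and 0.0790), so markers of the same cell lay on both sides. The list's mean level was 9.72, 9.40 and 9.39 on the DMM arrays and 9.69, 9.60 and 9.66 on the contralateral arrays, with DMM pool 1 above every contralateral pool.

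**Figure D3:**
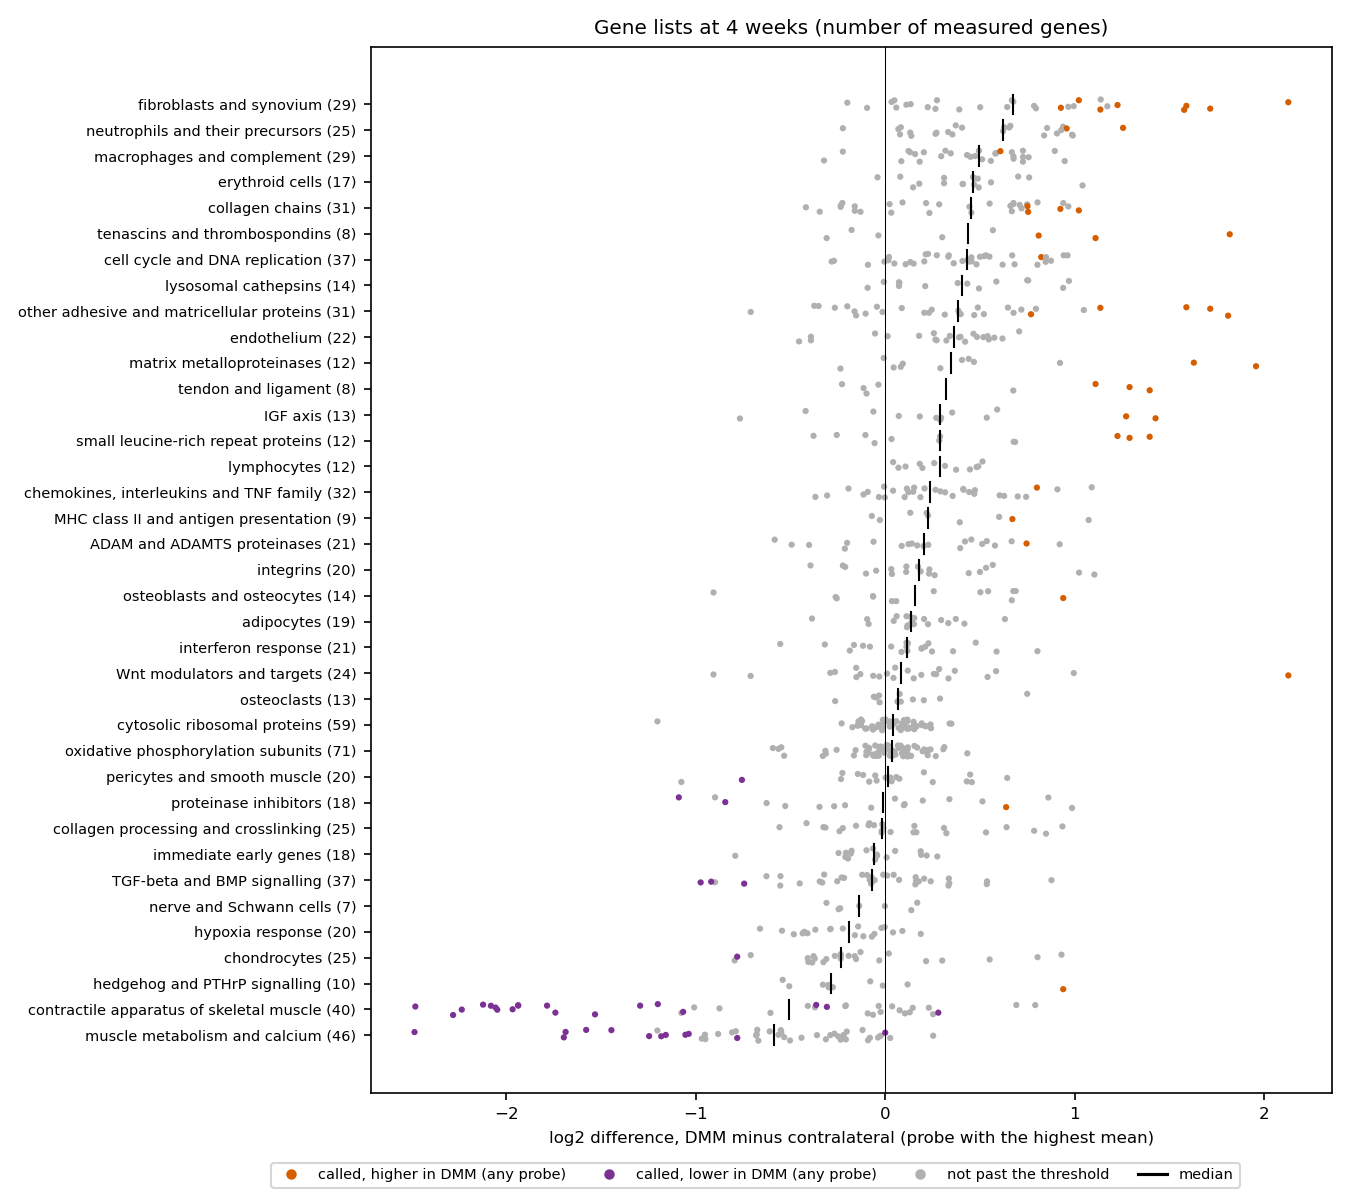
Each point is a measured gene of a list, placed by its log2 difference (DMM minus contralateral, x axis); orange and purple mark genes called higher or lower in DMM by any probe and black bars the list medians. The called decreases concentrate in the 2 muscle lists at the bottom, and 8 of the 29 fibroblast markers are called higher in DMM.

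Among the up-regulated genes, 2 were MMPs. Mmp3 (stromelysin 1, which cleaves proteoglycans and activates other MMPs) read 8.82, 9.60 and 9.65 in DMM and 6.92, 7.58 and 7.71 in contralateral pools. With 3.89-fold more signal (1.96 ± 0.25 on the log2 scale, adjusted p = 0.00420) all 3 of its probes were called. Mmp2 (gelatinase A) read 9.40, 9.64 and 9.93 in DMM and 7.59, 8.02 and 8.48 in contralateral pools (1.63 ± 0.21, adjusted p = 0.00524). Only these 2 of the 12 measured MMPs rose, both in the fit of all 18 arrays too (0.00931 and 0.0415). Mmp13 (collagenase 3) and Mmp14, which sits in the membrane and activates Mmp2, had differences of 0.47 and 0.92 that did not pass (adjusted p = 0.222 and 0.0858). Of 21 measured ADAM and ADAMTS genes only Adamts12 was called, at 7.26, 7.44 and 7.66 in DMM and 6.61, 6.72 and 6.79 in contralateral pools (0.75 ± 0.14, adjusted p = 0.0466), and this ended without any one of 5 pools (up to 0.208). The other probe of Adamts12 differed by 0.17 with overlapping groups (adjusted p = 0.764).

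Tenascins and thrombospondins, large adhesive proteins that appear in remodelling tissue, had 3 of 8 members up-regulated. Tnn (tenascin W) read 7.434, 8.085 and 8.300 in DMM and 6.281, 6.004 and 6.075 in contralateral pools. The DMM pools spread over 0.87 log2 units, yet all lay above the contralateral pools (1.82 ± 0.20, adjusted p = 0.00214, and 0.00931 in the fit of all 18 arrays). Of the 2 probes of Tnn 1 was called. Tenascin C (Tnc) had 4 of 7 probes called, the brightest at 10.05, 10.56 and 10.86 in DMM and 9.37, 9.50 and 9.27 in contralateral pools (1.11 ± 0.19, adjusted p = 0.0260). Thbs3 differed by 0.81 ± 0.14 and was called on 1 of 3 probes. Without DMM pool 2, DMM pool 3 or contralateral pool 1 neither Tnc nor Thbs3 was called (adjusted p up to 0.106 and 0.136).

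Small leucine-rich proteoglycans, which bind collagen and set the width of its fibrils, had 3 of 12 members up-regulated. Fibromodulin (Fmod) read 9.61, 10.06 and 9.43 in DMM and 8.31, 8.22 and 8.70 in contralateral pools (1.29 ± 0.19, adjusted p = 0.00967), and both of its probes were called. Lumican (Lum) differed by 1.23 ± 0.19 with both probes called, but not without DMM pool 2 (adjusted p = 0.0678). Keratocan (Kera), best known from cornea and tendon, read 6.69, 6.76 and 7.47 in DMM and 5.62, 5.09 and 6.02 in contralateral pools. Of these, contralateral pools 1 and 2 lay below the 5th percentile of 5.65. The groups of Kera were apart by 0.67 log2 units, and its call (1.40 ± 0.25, adjusted p = 0.0316) ended without any one of 4 pools, DMM pool 2 and DMM pool 3 among them (up to 0.121).

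Collagens rose in 4 of 31 measured chains, with a median difference of 0.46 and 23 chains above 0. The 4 were Col3a1 and Col5a2, which build fine fibrils, Col6a1, of the beaded filaments around cells, and Col16a1, which associates with fibrils. Col6a1 read 10.04, 10.34 and 10.41 in DMM and 8.96, 9.50 and 9.56 in contralateral pools (0.93 ± 0.18, adjusted p = 0.0466). Col3a1 was called through its dimmer probe, at 10.83, 11.37 and 11.12 in DMM and 8.89, 9.99 and 10.13 in contralateral pools (1.43 ± 0.28, adjusted p = 0.0466). In both the lowest contralateral value was that of pool 1. The main chains of type I collagen, Col1a1 and Col1a2, differed by 0.68 and 0.67 and missed the threshold (adjusted p = 0.112 and 0.0917), and Col10a1, the collagen of hypertrophic cartilage, had a difference of -0.42 (adjusted p = 0.417). Col5a2 was called on 1 of 5 probes. Without DMM pool 2 none of the 31 chains passed, and the adjusted p of the 4 rose to as much as 0.216 with a single pool left out.

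Other adhesive and matricellular proteins had 5 of 31 members up-regulated. Ccn5 (Wisp2), a member of the CCN family of matricellular proteins, read 8.55, 8.63 and 8.45 in DMM and 6.12, 6.63 and 7.44 in contralateral pools, so that the spread lay on the contralateral side (1.81 ± 0.26, adjusted p = 0.00967). For Cthrc1, a secreted collagen-repeat protein, the contralateral pools were level at 5.17, 5.23 and 5.25, and the DMM pools read 6.52, 6.69 and 7.21 (1.59 ± 0.17, adjusted p = 0.00191). These contralateral values all lay below the 5th percentile of 5.65, at the low end of the arrays. The other probe of Cthrc1 differed by 0.55 and was not called (adjusted p = 0.112). Periostin (Postn), a product of fibroblasts and periosteum, read 7.20, 8.19 and 8.56 in DMM and 6.30, 5.87 and 6.64 in contralateral pools (1.72 ± 0.30, adjusted p = 0.0292), and it lost its call without any one of 4 pools, DMM pool 2 among them (up to 0.116). Of the 3 probes of Postn 1 was called. Aebp1 and Crispld2 differed by 1.14 and 0.77 and were not called without DMM pool 2, DMM pool 3 or contralateral pool 1 (up to 0.197 and 0.105).

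Signalling genes that rose were few. Sfrp2, a secreted modulator of Wnt proteins, had the largest increase of all called genes by their brightest probe, at 8.28, 9.28 and 8.73 in DMM and 6.68, 6.78 and 6.44 in contralateral pools (2.13 ± 0.22, adjusted p = 0.00127). It was the only one of 24 Wnt modulators and targets that was called, and it missed the threshold in the fit of all 18 arrays (0.0547). Of the IGF axis, which supports matrix synthesis in cartilage, Igf1 and Igfbp4 rose of 13 genes. Igf1 read 9.73, 10.53 and 10.43 in DMM and 8.21, 8.82 and 9.37 in contralateral pools (1.43 ± 0.28, adjusted p = 0.0466), and Igfbp4, which binds IGFs, differed by 1.27 ± 0.20. The second probes of Igf1 and Igfbp4 differed by 1.28 and 0.77 and were not called (adjusted p = 0.135 and 0.0848). Without DMM pool 2 or DMM pool 3 neither gene's call held (up to 0.208 and 0.0999). Pth1r, the receptor of parathyroid hormone and PTHrP, read 8.03, 7.99 and 8.08 in DMM and 6.98, 7.08 and 7.21 in contralateral pools. Both groups were tight (0.94 ± 0.13, adjusted p = 0.00820), and 1 of the 3 probes of Pth1r was called. The call ended when DMM pool 3 was left out (0.0502) and in the fit of all 18 arrays (0.0773).

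Of the 19 up-regulated matrix and proteinase genes 5 are also on the list of fibroblast markers. Of 29 fibroblast and synovium markers 8 rose, 27 had a positive difference, and the median was 0.68, but 19 of these 29 are held by another list too. The 8 were Sfrp2, Postn, Cthrc1, Lrrc15, Lum, Aebp1, Col3a1 and Fap. Fap, a membrane proteinase of activated fibroblasts, read 8.46, 8.56 and 8.34 in DMM and 7.32, 7.63 and 7.62 in contralateral pools (0.93 ± 0.14, adjusted p = 0.0149, and 0.0269 in the fit of all 18 arrays), without a call when DMM pool 2 or contralateral pool 1 was left out (0.0737 at most). The other probe of Fap differed by 0.26 and was not called (adjusted p = 0.479). Lrrc15, a membrane protein of activated fibroblasts, read 9.64, 10.28 and 9.61 in DMM and 7.50, 8.75 and 8.55 in contralateral pools (1.58 ± 0.29, adjusted p = 0.0366), and it lost its call without any one DMM pool or contralateral pool 1 (up to 0.123). Of the 21 markers that did not pass, Dcn, Vim and Pdgfrb had differences of 0.03, 0.27 and 0.06. These lie below the list's median, were picked after the values were seen and do not stand for the list. The mean level of the list was 8.55, 8.99 and 8.96 on the DMM arrays and 7.79, 8.22 and 8.33 on the contralateral arrays. DMM pool 1 and contralateral pool 1 were the lowest of their groups. The number of fibroblast markers called fell to 2 without DMM pool 2 and to 1 in the fit of all 18 arrays. The part that fibroblasts in the pools have in the matrix genes was not tested.

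**Figure D4:**
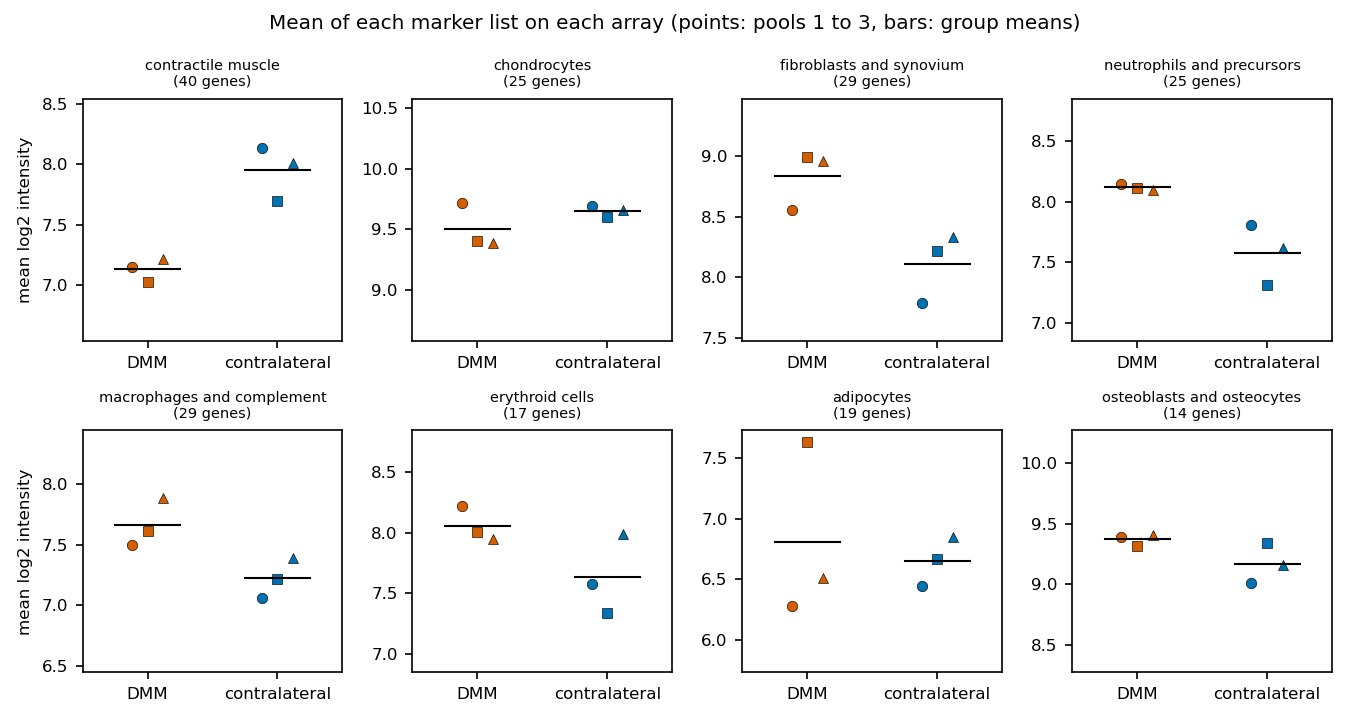
Mean log2 intensity (y axis, every panel spanning 2 log2 units) of 8 marker lists on each array, with DMM pools left and contralateral pools right; symbols mark pools 1 to 3 and bars the group means. Contractile muscle, fibroblast, neutrophil and macrophage lists separate the groups, and DMM pool 2 stands out in the adipocyte list at 7.63.

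Of the leukocyte genes few were called. Mpo, the myeloperoxidase of neutrophil granules, read 10.36, 10.08 and 10.16 in DMM and 8.96, 8.65 and 9.22 in contralateral pools. All 4 of its probes were called (1.26 ± 0.16, adjusted p = 0.00524), whichever pool was left out (at most 0.0299), but not in the fit of all 18 arrays (0.706). Lcn2, an iron-binding granule protein, was the other of 25 neutrophil and precursor markers that rose, at 8.51, 8.51 and 8.72 in DMM and 7.99, 7.22 and 7.66 in contralateral pools (0.96 ± 0.18, adjusted p = 0.0466, up to 0.207 with a pool left out, with contralateral pool 1 the only pool whose omission kept the call). In all 24 of the 25 had a positive difference, the groups were apart in 13, and the median was 0.62. The granule genes Ltf, Ctsg, Elane, Camp and S100a8 differed by 0.91 to 0.99, with adjusted p-values of 0.0546 to 0.121. Over all genes the groups lay apart with the higher values in DMM in 10.6% and with the lower values in DMM in 8.88%. The mean of the list was 8.14, 8.11 and 8.10 on the DMM arrays and 7.81, 7.31 and 7.62 on the contralateral arrays. Erythroid markers, which like neutrophil precursors belong to bone marrow, had 0 of 17 called and 16 positive, with a median of 0.46, and their means overlapped at 8.22, 8.01 and 7.95 in DMM and 7.57, 7.34 and 7.99 in contralateral pools. The part of blood or marrow cells was not tested.

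Of macrophage and complement genes 27 of 29 had a positive difference, with a median of 0.50, and 1 was called. This was Lyz2 (lysozyme), through its dimmest probe at 8.41, 8.46 and 9.19 in DMM and 7.40, 7.26 and 7.74 in contralateral pools (1.22 ± 0.21, adjusted p = 0.0268), whereas its brightest probe differed by 0.61. Cd74, the invariant chain of MHC class II, rose through its second probe (0.86 ± 0.15, adjusted p = 0.0268), and Cxcl14, a chemokine, read 8.51, 8.90 and 8.63 in DMM and 7.69, 8.01 and 7.93 in contralateral pools (0.80 ± 0.15, adjusted p = 0.0430). The other probe of Cxcl14 differed by 0.61 with overlapping groups (adjusted p = 0.263). These 3 calls ended in 4 or 5 of the 6 smaller fits, each of them without DMM pool 3 (up to 0.0916, 0.130 and 0.155). Lymphocyte markers had 0 of 12 called, all with positive differences and a median of 0.29.

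Of cell cycle and DNA replication genes 33 of 37 had a positive difference, with a median of 0.43, and the groups were apart in 17, each with the higher values in DMM. Over all genes 5861 of 11499 had a positive difference, and the groups were apart with higher values in DMM in 10.6%. Of the 37 cell cycle genes 1 was called: Tk1, a thymidine kinase, at 6.17, 6.22 and 6.24 in DMM and 5.38, 5.55 and 5.24 in contralateral pools (0.82 ± 0.14, adjusted p = 0.0211, and 0.0415 in the fit of all 18 arrays). These contralateral values all lay below the 5th percentile of 5.65. DMM values were within 0.07 log2 units of each other, and the call ended without any one of 4 pools, DMM pool 3 among them (up to 0.103). Rrm2, Plk1 and Stmn1 had differences of 0.96, 0.94 and 0.88 that missed the threshold (adjusted p = 0.0603, 0.0978 and 0.0546). The 3 called of 8 tendon markers (Fmod, Kera and Tnc) and the 1 of 14 osteoblast markers (Pth1r) are members of other lists too. Lists with no call in either direction were collagen processing (25 genes, median -0.02), integrins (20, 0.18), cathepsins (14, 0.41), endothelial markers (22, 0.37), hypoxia response (20, -0.19), immediate early genes (18, -0.06), osteoclasts (13, 0.07), interferon response (21, 0.12), ribosomal proteins (59, 0.04), oxidative phosphorylation (71, 0.04), and nerve (7, -0.14) and epidermal markers (2, -0.08). Adipocyte markers had 0 of 19 called, and their mean was 6.28, 7.63 and 6.51 on the DMM arrays and 6.44, 6.67 and 6.85 on the contralateral arrays. Adipoq read 8.13 in DMM pool 2, against 6.06 and 6.47 in the other DMM pools. Whether adipose tissue in this pool has a part in the calls that ended without it was not tested.

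Among up-regulated genes in no list, 27 in all, Bpifb1 stood highest. This secreted protein of mucosal surfaces read 6.90, 7.40 and 7.77 in DMM and 5.16, 5.54 and 5.83 in contralateral pools (1.84 ± 0.22, adjusted p = 0.00379, and 0.0169 in the fit of all 18 arrays), with both probes called. Its contralateral pools 1 and 2 lay below the 5th percentile of 5.65. Gpm6b, a membrane proteolipid, read 8.16, 8.42 and 8.35 in DMM and 6.09, 6.87 and 7.48 in contralateral pools (1.50 ± 0.27, adjusted p = 0.0350, up to 0.145 without DMM pool 1, DMM pool 2, DMM pool 3 or contralateral pool 2). Nt5dc2 differed by 1.38 ± 0.14 (adjusted p = 0.00127). Lamb1, a laminin chain of basement membranes, Antxr1, a collagen-binding receptor, and Angptl1 differed by 1.37, 1.35 and 1.35, and the transcription factors En1, Barx2 and Bnc2 by 1.15, 1.14 and 0.92. Pdpn, a membrane glycoprotein of synovial lining and lymphatic cells, differed by 1.11, Ptgs2, the inducible cyclo-oxygenase, by 0.87, Piezo2, a mechanically gated channel, by 0.81 on its called probe, and Sdc1, a heparan sulphate proteoglycan, by 0.67. Bpifb1, Nt5dc2 and the noradrenaline transporter Slc6a2 aside, the calls in this group ended with DMM pool 3 left out, with adjusted p-values of up to 0.208 for those named.

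**Figure D5:**
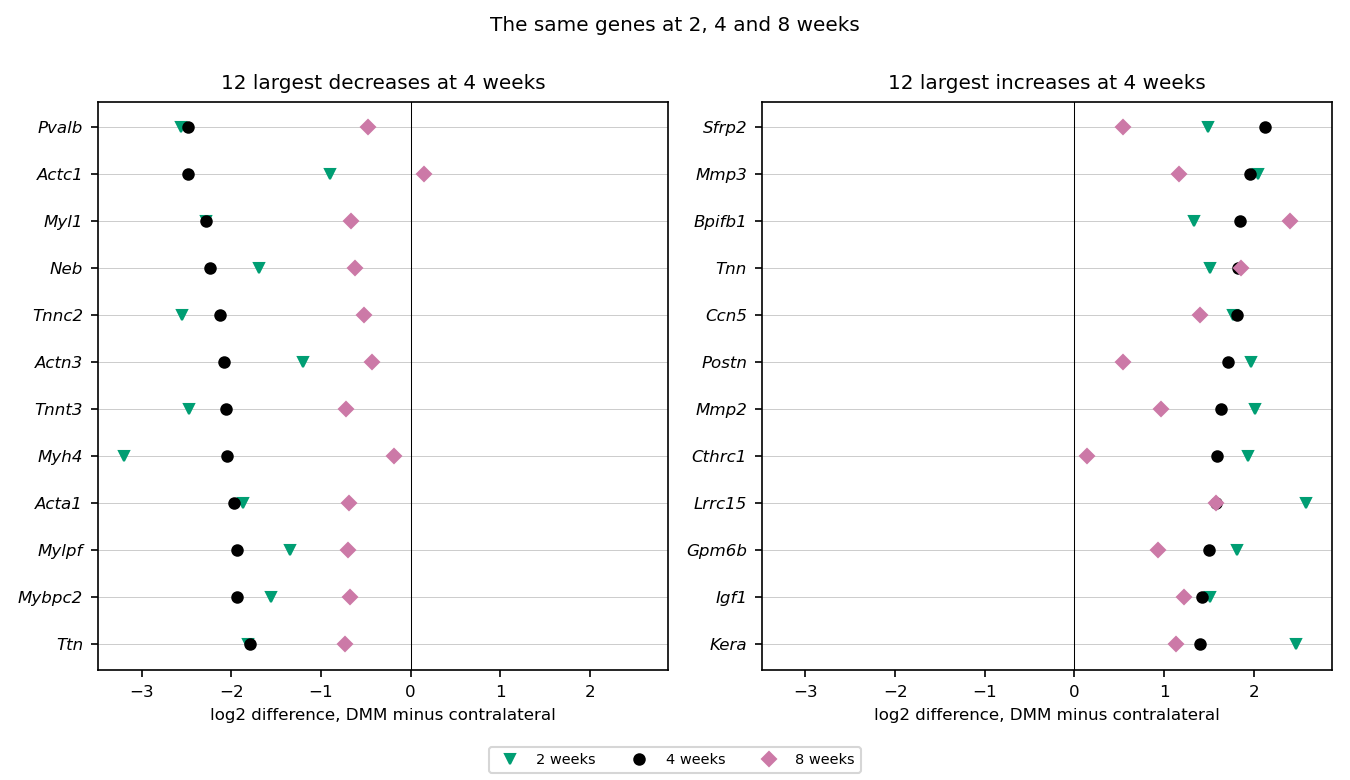
Log2 difference (DMM minus contralateral, x axis) at 2, 4 and 8 weeks for the 12 largest decreases and the 12 largest increases of week 4. At 8 weeks 11 of the 12 decreased genes lie closer to 0 than at 4 weeks on the same side, and Actc1 lies at 0.15. The increased genes Bpifb1, Tnn and Lrrc15 lie at 2.41, 1.86 and 1.58, no closer to 0 than at 4 weeks. The other increased genes also lie closer to 0.

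To place the middle time point, the same differences were taken at 2 and 8 weeks from arrays that share none with those of week 4. Of the 58 up-regulated genes 54 had the same sign at 2 weeks and 53 at 8 weeks, with medians of 1.19, 1.02 and 0.61 at 2, 4 and 8 weeks. Of the 50 down-regulated genes 47 and 46 were lower in DMM by their brightest probe at 2 and 8 weeks, with medians of -1.10, -1.12 and -0.52. For Tpm3, Map4 and Mef2c this probe was not lower at 4 weeks itself (0.28, 0.06 and 0.00). The share of all genes that keep their sign between weeks was not counted. The change of the DMM effect between weeks was tested in the fit of all 18 arrays. It passed the threshold for 0 probes between weeks 4 and 2 (limma, 1250 at an unadjusted p below 0.05, smallest adjusted p 0.813) and for 0 between weeks 4 and 8 (1742 and 0.127), so no gene was shown to respond differently at 4 weeks. Single genes and lists are set side by side here. Actc1 differed by -0.90, -2.48 and 0.15 at 2, 4 and 8 weeks, and without contralateral pool 2 it was the only gene whose change between weeks 4 and 8 passed (adjusted p = 0.0379). Mpo differed by -0.73, 1.26 and 0.07. The neutrophil list had medians of -0.26, 0.62 and -0.07, and the cell cycle list had medians of 0.13, 0.43 and -0.08. Tbc1d10c, a regulator of lymphocyte signalling, differed by -0.27, 0.83 and -0.59 (unadjusted p = 0.00111 for the change between weeks 4 and 2, adjusted 0.896), Sdc1 by 1.24, 0.67 and 0.45, and Bmpr1b by -0.13, -0.74 and -0.47. Serpina1b and Ucma, at -2.17, -0.84 and -0.73 and at -1.45, -0.78 and -0.41, were lowest at 2 weeks (unadjusted p = 0.000105 and 0.00959, adjusted 0.813 and 0.896). Fmod, at 1.28, 1.29 and 1.97, and Tnn, at 1.51, 1.82 and 1.86, were no smaller at 8 weeks than at 4, whereas Cthrc1, at 1.94, 1.59 and 0.15, and Sfrp2, at 1.48, 2.13 and 0.54, were near the contralateral level or closer to it at 8 weeks.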

How the data were processed

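Cartilage RNA from pools of 8 knees was amplified and hybridised to Illumina Mouse WG-6 v2.0 bead arrays. The deposited values are on a log2 scale: the authors exported signals from GenomeStudio and quantile-normalised the log values of the 18 arrays together, using lumi 2.8.0 under R 2.15.0. Quantile normalisation gives every array the same distribution, so a shift common to most genes cannot be seen. A second table, of signals before normalisation with their detection p-values, was left aside, because its 36 columns carry running numbers that match no label. No further probe was therefore filtered on detection here. The study's methods describe a selection of probes, and whether the deposited probes had already passed one is not stated. Shares of all probes and genes, and the percentiles, thus refer to the deposited set. Depth does not apply to arrays, whose number limits the precision. No genome build is named for the arrays, and probes were named through the platform annotation: 18998 have 1 gene symbol, 6 have several and 3995 are not listed.

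The 3 DMM arrays were compared with the 3 contralateral arrays of week 4 in limma 3.58.1 (R 4.3.3), with moderated variances, as independent pairwise comparison is what the study's methods state. The Benjamini-Hochberg adjustment ran over all 22999 probes, with a threshold of 0.05. The change between weeks was an interaction contrast in 1 fit of all 18 arrays. Where nothing else is said, ± gives the standard error of the fit, and p-values measure the spread between pools, n = 3 a group. The tests were checked on simulated arrays. Medians of lists are over 1 probe a gene, that with the highest mean on the 18 arrays.

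The genes named are the 12 largest increases and 12 largest decreases among called genes with groups that do not overlap, every gene the study names for 4 weeks, up to 3 risen and 3 fallen called members of each list, and up to 6 called genes with the lowest p for a change against week 2. Other called genes are given with their difference, and genes that did not pass were named after their values were seen. The comparison, its 40 gene lists and the genes were chosen with earlier results of these data known. In 2 of the lists the study itself chose the genes on these arrays: of 11 pathway genes 5 rose and 6 fell, and of 17 measured genes that it names for 4 weeks 13 rose and 4 fell, which is no independent evidence. Alternatives were cyclic loess, quantile normalisation repeated on the 6 arrays, array weights, brighter probes only and an averaged value per gene. Others were robust variances with an intensity trend, a block for the replicate number, and each pool left out in turn. Plots were made in matplotlib 3.10.9 (Python 3.11.15).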

Additional observations from a re-analysis of the deposited data

How the results depend on the processing

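The counts of calls depended on the pools, on how the spread was estimated and on how probes were combined. In place of 147 probes and 108 genes, the fit of all 18 arrays called 36 probes (20 higher and 16 lower in DMM, 32 of them among the 147) and 27 genes, and an intensity trend with robust variances called 316 probes (140 of them shared) and 234 genes. With one mean per gene over all its probes 43 genes were called. Leaving out 1 pool gave 50 to 192 probes and 36 to 135 genes. Cyclic loess, array weights and brighter probes only gave counts within 1.5 times those of the main comparison. Quantile normalisation of the 6 arrays alone gave the same 147 probes and 108 genes. It could hardly do otherwise, since the deposited values were already quantile-normalised. The replicate number as a block raised the calls to 341 probes (211 higher and 130 lower in DMM, 144 shared) and 245 genes, 158 higher and 87 lower in DMM, in place of 58 and 50. Same-numbered DMM and contralateral pools deviated together only weakly, with correlations of 0.135, 0.0554 and 0.0684, and no source says that a number marks a shared group of mice, so the numbers do not establish a pairing, although all 6 arrays correlated best with their own number, a hint from the data and not from the design. The change between weeks 4 and 8 had 0 to 1 probe past the threshold when a pool of week 4 was left out, the 1 being a probe of Actc1, and the change between weeks 4 and 2 had 0 with the trend and robust variances, with the block, with brighter probes only and with any pool of week 4 left out, the settings run for it. Under these settings 0 values of single genes changed direction, but this count could hardly differ. The groups do not overlap on any called probe, so leaving out a pool cannot reverse its difference. The fit of all 18 arrays, the trend and the block keep the same difference of means. The cause of the shifts in the counts was not tested. Signals below background could not be told apart from low expression, since no detection p-value was used.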
